A study of Mus musculus with 76 samples.

Results

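MHC class II presentation was followed through 7 genes, H2-Aa, H2-Ab1, H2-Eb1, Cd74, Ciita, H2-DMa and H2-DMb1. They were picked by symbol out of the 55536 genes of the count table. The rule held no measured value, but earlier results of these data were known when the genes were chosen. All 7 had counts in every tumor and passed the filter on low counts in each comparison. The genes were read in RNA from 38 whole tumors grown subcutaneously in female Balb/C mice, each sequenced as 2 technical replicate libraries. CT26 (a colon carcinoma line, 1000000 cells inoculated) and 4T1 (a mammary carcinoma line, 500000 cells) were used unmodified. 4T1-CAT and 4T1-control (500000 cells each) were 4T1 cells transduced with a lentivirus that turned on human catalase with GFP, or GFP alone, under doxycycline (DOX), then puromycin-selected and sorted for GFP. Transcripts of the introduced genes were not analysed here.

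Every tumor received 100 ug of alum, an aluminum particle, and part of them also CAT-ABP, 20 ug of catalase carrying a peptide that anchors it to alum. CAT-ABP + alum was given to 6 CT26, 6 4T1 and 5 4T1-CAT tumors. Alum without it was given to 5 CT26, 5 4T1, 5 4T1-CAT and 6 4T1-control tumors, which makes 7 groups. By the sample labels, injections were intratumoral on day 6 and harvest was on day 8, with a DOX diet from day 4 for the engineered lines only, while the study's methods give other days. The comparisons ask what changes, if any, extracellular catalase (EC CAT), intracellular catalase (IC CAT) or both made in the tumors' RNA. Catalase turns hydrogen peroxide into water and oxygen.

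MHC class II molecules show peptides from ingested and lysosomal proteins to CD4+ T cells. An alpha and a beta chain pair in the endoplasmic reticulum with the invariant chain Cd74, which blocks the peptide groove until lysosomal proteases cut it, and H2-DM then exchanges the last invariant chain fragment for peptide. Ciita, the class II transactivator, binds no DNA itself but joins RFX, CREB and NF-Y factors on X and Y boxes of these promoters. It is turned on constitutively in dendritic cells and B cells, and by interferon-γ in macrophages and many other cells, tumor cells included.

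Promoter windows of 300 bases (250 before the RefSeq start, GRCm38.p6) were at hand for 4 of the 7 genes, H2-Aa, H2-Eb1, H2-DMa and H2-DMb1. The stretches below are shown because the X and Y boxes are what the members of this pathway share as targets of Ciita. Capitals mark the matches of 3 patterns searched on both strands, namely an X1 box core (the first run of capitals in H2-Eb1 and H2-DMb1), a Y box TGATTGG and a CRE-type X2 box TGACGTCA. The letters of the Y box and of the X2 box were chosen after these promoters had been seen.
H2-Eb1, 17:34305763-34305824, + strand: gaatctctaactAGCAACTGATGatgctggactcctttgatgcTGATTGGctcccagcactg
H2-Aa, 17:34287855-34287921, − strand: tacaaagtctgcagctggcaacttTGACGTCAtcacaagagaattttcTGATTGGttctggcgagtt
H2-DMb1, 17:34153090-34153112, + strand: ttacctAGTAACTGATGatgcta
H2-DMb1, 17:34153122-34153140, + strand: actcagTGATTGGtctgac

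In H2-Eb1 the X1 core began 92 and the Y box 61 bases before the RefSeq start, which put their first bases 31 apart. The H2-DMb1 pair began 95 and 63 bases before the start, 32 apart, within a first exon annotated by GENCODE. In H2-Aa the X2 box began 74 and the Y box 50 bases before the start, 24 apart. None of the 3 patterns was found in the H2-DMa window. Among 32851 promoter windows of the same length, 3.09% held the X1 core, 7.82% the Y box, 1.79% the X2 box, 0.228% both X1 core and Y box, and 0.152% both X2 box and Y box. These matches describe letters in a window and were not tested for binding.

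On GRCm38, with GENCODE M21 annotation, 5 of the 7 genes lie within 197134 bp of the MHC on chromosome 17. These are H2-DMa (34119541-34139101, + strand), H2-DMb1 (34153072-34160230, +), H2-Ab1 (34257689-34269419, +), H2-Aa (34282744-34287823, −) and H2-Eb1 (34305867-34316674, +). Ciita is at 16:10480059-10528418 (+) and Cd74 at 18:60803848-60812652 (+). All are protein-coding, and H2-DMa shares exon sequence with Brd2, Ciita with Dexi and Cd74 with Mir5107. In the last 500 bases of the transcripts, where this assay reads, 20.4% of the 50-base words of H2-DMb1 also occur in its neighbor H2-DMb2, so counts of H2-DMb1 may hold reads of that copy. Of the words of Ciita, 0.831% occur on the opposite strand in Dexi, and the other 5 genes shared none with another gene.

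Levels are given as CPM, counts per 1000000 counts of a tumor after TMM scaling over the 38 tumors. Tumors had 493044 to 9077549 counts. Precision differed between members. Ciita had 1 to 263 counts in a tumor and Cd74 2 to 69, whereas H2-Aa had 211 to 8130. A total of 7 libraries fell under 0.25 of the median library, 4 of them in the 4T1-control group. CT26 tumors had summed levels of 18.5 to 32.1 CPM for 5 epithelial markers, against 1474 to 2746 CPM in tumors of the 4T1 lines, so the lines were told apart by their labels. By the first index tag of their libraries, the tumors fell into 2 sets. They are called sequencing pools here, though no label names them as such. The first held all CT26 tumors, the 4T1 tumors given CAT-ABP + alum and 2 of the 5 given alum. The other 19 tumors were in the second. In bulk tumor RNA, fewer cells of a type and less RNA per cell cannot be told apart.

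Ciita, the switch of the pathway, was at 21.8, 41.5, 18.9, 16.7 and 3.62 CPM in the 5 CT26 tumors given alum. With CAT-ABP + alum it lay between 3.27 and 27.1 CPM (median 11.9) in CT26. Replicate 2 was high and replicate 5 low in both CT26 groups, and the groups overlapped.

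In 4T1 tumors given alum, Ciita was at 6.85, 11.5, 6.93, 13.4 and 6.55 CPM, and with CAT-ABP + alum between 8.23 and 19.2 CPM (median 11.9). In 4T1-CAT it was at 8.88, 8.00, 17.5, 12.1 and 8.68 CPM with alum and at 10.8, 12.5, 9.88, 12.8 and 11.02 CPM with CAT-ABP + alum. In 4T1-control it lay between 2.19 and 9.62 CPM (median 7.59). The 5 doubly treated 4T1-CAT tumors all stood above the 6 4T1-control tumors, and every other pair of groups named here overlapped.

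H2-Aa, H2-Ab1 and H2-Eb1 encode classical chains, the alpha and beta chains of I-A and the beta chain of I-E. H2-Ab1 was at 385.9, 733.9, 236, 168 and 94.2 CPM in CT26 tumors given alum, an almost 8-fold range (7.79), and between 70.4 and 306.5 CPM (median 188) with CAT-ABP + alum. In 4T1 it was at 115, 116, 94.7, 152 and 78.6 CPM with alum and between 68.4 and 153.6 CPM (median 119) with CAT-ABP + alum. The CT26 tumors reached far higher than the 4T1 tumors but their lowest tumors fell among them.

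H2-Aa was at 1092, 1727, 794, 804 and 523 CPM in CT26 tumors given alum and at 454, 348, 634, 482.5 and 625.4 CPM in 4T1 tumors given alum. H2-Eb1 was at 406.5, 684, 270.4, 183 and 98.6 CPM and at 139, 136, 119.5, 157 and 99.3 CPM in the same groups. For each of these chains 4 of the 5 CT26 tumors stood above every 4T1 tumor, and CT26 replicate 5 was the exception.

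Cd74, the invariant chain, lay between 6.52 and 11.7 CPM in CT26 tumors given alum and between 2.88 and 10.04 CPM in 4T1 tumors given alum. The peptide-loading subunit H2-DMb1 was at 72.8, 99.2, 51.7, 60.8 and 38.9 CPM in CT26 and at 24.3, 24.8, 37.4, 23.4 and 26.5 CPM in 4T1, both with alum. Its partner H2-DMa was at 222, 277, 216, 227 and 194.5 CPM and at 139.7, 116, 206, 135 and 224 CPM. H2-DMb1 did not overlap between the lines, whereas Cd74 and H2-DMa did.

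The order of the group means was headed by CT26 with alum, then CT26 with CAT-ABP + alum, for all 7 members. Below them the 5 groups of 4T1 lines changed places from gene to gene. All 42 neighboring pairs in the 7 orders overlapped, and in 41 of them the gap between means was smaller than the larger SD. Tumors also differed from each other within groups, most so in CT26. The median SD over the members was 0.72 on the log2 scale in CT26 with CAT-ABP + alum and 0.64 with alum, where the median gene had 0.34 and 0.38. 4T1-CAT with alum came next, at 0.57 against 0.34. In the other 4 groups of 4T1 lines the members had 0.36 to 0.50 and the median gene 0.27 to 0.47.

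**Figure D1:**
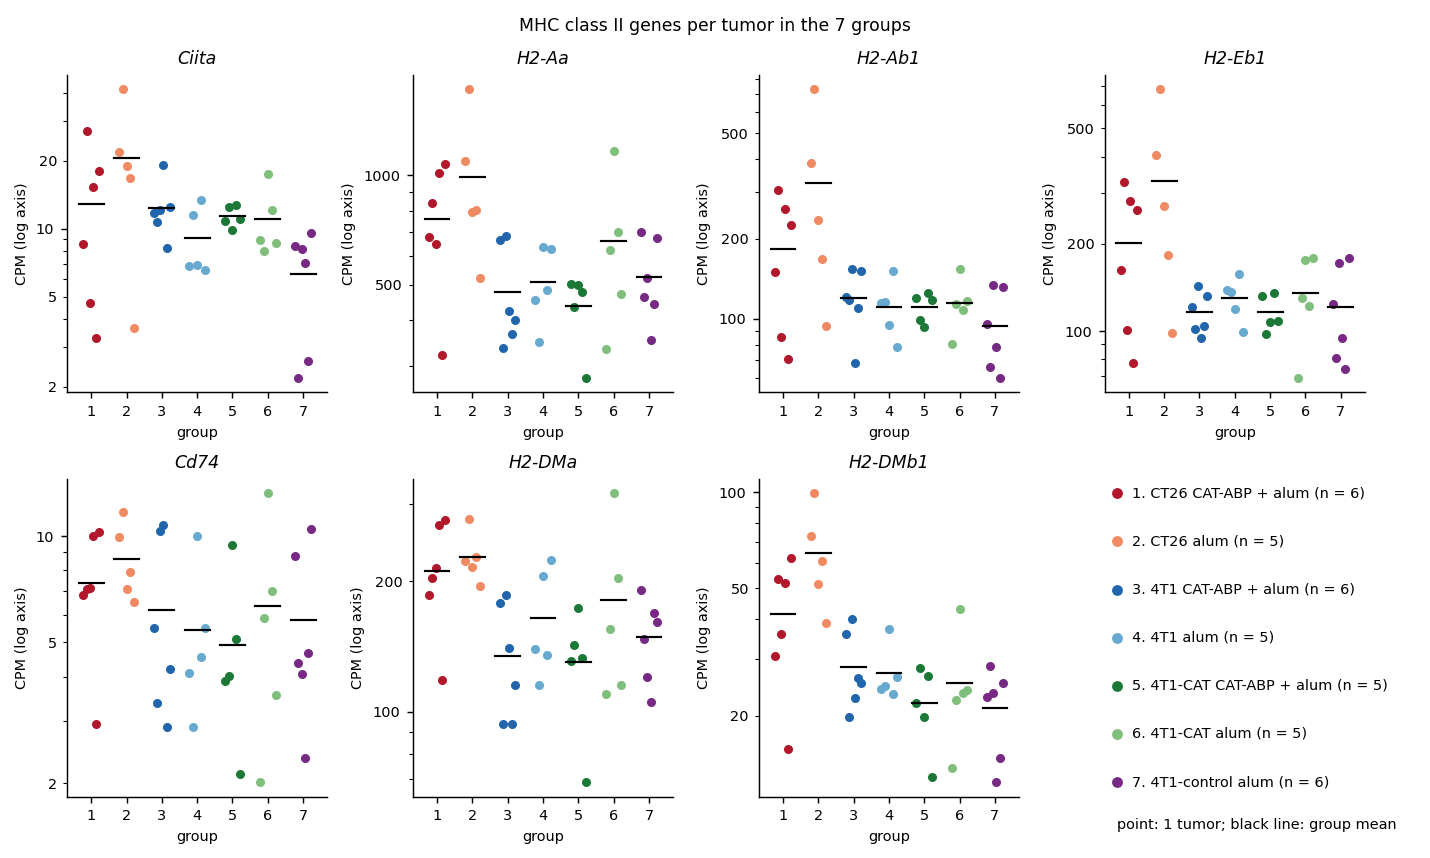
CPM per tumor (log axis) of each member in the 7 groups; each point is 1 tumor and the bar is the group mean. CT26 with alum holds the highest mean for all 7 members, and its 5 tumors spread from 94.2 to 733.9 CPM for H2-Ab1.

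The first question was whether extracellular catalase changed these genes in CT26. All 7 members had lower means with CAT-ABP + alum than with alum, and none passed the test. The fitted log2 fold changes ran from -0.83 ± 0.47 (SE) for H2-Ab1 (183 ± 96.2 against 324 ± 253 CPM, SD, n = 6 and 5) to -0.11 ± 0.19 for H2-DMa. Their median was -0.62, where that of all genes was -0.0038. H2-DMb1 was at 41.7 ± 17.2 against 64.7 ± 22.9 CPM (log2 fold change -0.63 ± 0.30, unadjusted p = 0.0537 by edgeR, p = 0.0952 by two-sided exact permutation test). By edgeR's quasi-likelihood test, 0 members had an adjusted p at or under 0.05 (0.9997 for each), 0 had an unadjusted p under 0.05, and DESeq2 also called 0. Background was 0% of 12830 genes called and 2.42% at the unadjusted limit. Without CT26 alum replicate 2, the highest tumor for all 7 members, the log2 fold change of H2-Ab1 was -0.28.

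In 4T1, CAT-ABP + alum left 3 members with higher and 4 with lower fitted levels than alum. Ciita had the highest log2 fold change, 0.32 ± 0.24 (12.4 ± 3.65 against 9.06 ± 3.201 CPM, SD, n = 6 and 5), and H2-DMa the lowest, -0.31 ± 0.21 (134 ± 40.4 against 164 ± 47.6 CPM). The members' median was -0.019 beside -0.0030 over all genes. No member passed (adjusted p = 0.9993 for each by edgeR), 0 had an unadjusted p under 0.05, DESeq2 called 0, and 0% of 13092 genes were called (2.88% unadjusted). With the sequencing pool as a block, H2-Aa, Cd74 and H2-DMa changed from below to above 0 (0.25, 0.66 and 0.065) and were still not called.

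A test of the difference between these effects gave no call either. The effect of CAT-ABP in CT26 minus that in 4T1 was below 0 for 6 members, with -0.96 ± 0.63 for Ciita, -0.96 ± 0.54 for H2-Ab1 and -0.70 ± 0.38 for H2-DMb1 on the log2 scale. Each had an interaction adjusted p of 1 by edgeR, 0 had an unadjusted p under 0.05 and DESeq2 called 0 (0% of 14160 genes called, 3.59% unadjusted). The effects in the 2 lines were thus not shown to differ.

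In 4T1-CAT tumors, 6 members had lower levels with CAT-ABP + alum than with alum. H2-Aa was at 504, 436, 498, 477.5 and 278 CPM with CAT-ABP + alum and at 333, 623, 1164, 700.5 and 473 CPM with alum. The groups overlapped, and replicate 3 of the alum group stood far above the rest. The log2 fold change was -0.58 ± 0.27 (unadjusted p = 0.0464 and adjusted p = 0.321 by edgeR, p = 0.222 by exact permutation test), and -0.29 without that replicate. Of the members, 0 were called by edgeR or DESeq2 and 1 had an unadjusted p under 0.05, beside 0% and 15.3% of 13093 genes. The difference from the effect in 4T1 was also tested, and 0 members were called by either tool or had an unadjusted p under 0.05 (0% of 13851 genes called, 8.79% unadjusted), with log2 differences from -0.48 ± 0.36 for H2-Aa to -0.045 ± 0.26 for H2-Eb1.

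Intracellular catalase was compared between 4T1-CAT and 4T1-control, both given alum. All 7 members were fitted higher in 4T1-CAT (median log2 fold change 0.27, all genes -0.0053), from 0.078 ± 0.45 for Cd74 to 0.68 ± 0.32 for Ciita (11.04 ± 3.96 against 6.33 ± 3.16 CPM, SD, n = 5 and 6). Ciita had an unadjusted p = 0.0452, an adjusted p = 0.975 by edgeR and p = 0.0563 by exact permutation test. No member was called by edgeR or DESeq2, and 1 had an unadjusted p under 0.05, beside 0% and 5.08% of 12534 genes. H2-Aa lay between 333 and 1164 CPM in 4T1-CAT and between 353.6 and 697 CPM in 4T1-control, and 2 of 5 tumors stood above all controls and 1 below. The 4T1-control group also held the shallowest tumor, replicate 2, in which Ciita rested on 1 count.

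With both catalases, set against 4T1-control, Ciita had the largest log2 fold change of the members. It was at 11.4 ± 1.21 CPM (SD, n = 5) against 6.33 ± 3.16 (n = 6), a log2 fold change of 0.74 ± 0.26. The ranges, 9.88 to 12.8 and 2.19 to 9.62 CPM, did not overlap, as was the case for 1.98% of 12781 genes (1.3% in this direction). The two-sided exact permutation test gave p = 0.004329, the smallest that 6 against 5 tumors allow, out of 63 such tests run on single members. It did not pass in the fit over all genes (unadjusted p = 0.0114, adjusted p = 0.161 by edgeR, 0.0977 to 0.329 when each tumor was left out in turn). DESeq2 gave an adjusted p = 0.0965, and without libraries of low depth the log2 fold change was 0.64 (adjusted p = 0.188 by edgeR). The other alternatives gave 0.65 to 0.97 with adjusted p of 0.0991 to 0.9998. The other 6 members lay between -0.28 ± 0.40 for Cd74 and 0.22 ± 0.19 for H2-Ab1, and 0 members were called by edgeR or DESeq2 and 1 had an unadjusted p under 0.05 (0.0235% and 16.9% of genes). Comparisons against 4T1-control share its 6 tumors, and this group had the lowest Ciita mean of all 7. Beside its 6.33 CPM, 4T1 had means of 9.06 CPM with alum and 12.4 CPM with CAT-ABP + alum. 4T1-CAT with alum had 11.04 CPM.

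The 2 remaining checks set an engineered line, on the DOX diet, against its parent without that diet. Construct, selection and diet cannot be told apart in them. With alum, 4T1-control minus 4T1 gave 5 members below 0, with the lowest log2 fold change for H2-DMb1 (-0.45 ± 0.21, unadjusted p = 0.0466, adjusted p = 0.461 by edgeR, p = 0.173 by exact permutation test). With CAT-ABP + alum, 4T1-CAT minus 4T1 gave all 7 below 0, from -0.40 ± 0.21 for H2-DMb1 to -0.0088 ± 0.13 for H2-Eb1. For Ciita the 2 checks gave -0.44 ± 0.32 (adjusted p = 0.696 by edgeR) and -0.020 ± 0.19. No member was called by edgeR or DESeq2 in either (0% of 12431 and 0.0151% of 13235 genes called), and 1 and 0 members had an unadjusted p under 0.05 (10.5% and 4.28% of genes). In the second, the pool and the group cannot be told apart.

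CT26 tumors had more class II transcript than 4T1 tumors when both were given alum. All 7 members were higher in the mean and 5 rose past the threshold, beside 42.4% of 12817 genes called in either direction and 21.3% called higher. H2-Ab1 was 2.905-fold higher (log2 fold change 1.54 ± 0.41, adjusted p = 0.00725 by edgeR, p = 0.0556 by exact permutation test), at 324 ± 253 against 111 ± 27.5 CPM (SD, n = 5 and 5). H2-Eb1 was 2.52-fold higher (1.33 ± 0.38, adjusted p = 0.00981, edgeR) and H2-Aa 1.945-fold (0.96 ± 0.28, adjusted p = 0.0117, edgeR). Exact permutation tests gave p = 0.0794 for H2-Eb1 and p = 0.0238 for H2-Aa. H2-DMb1 was 2.34-fold higher (1.23 ± 0.22, adjusted p = 0.000403 by edgeR). Its exact permutation p = 0.007937 is the smallest that 5 against 5 allow, and its ranges did not overlap, as for 29.9% of genes (14.3% in this direction). When each tumor was left out in turn, H2-DMb1 (1.03 to 1.37), H2-Ab1 (0.99 to 1.76), H2-Eb1 (0.88 to 1.56) and H2-Aa (0.66 to 1.11) passed each time, with the lowest log2 fold changes of these ranges for H2-Ab1 and H2-Eb1 reached without CT26 alum replicate 2.

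Ciita was 2.145-fold higher in CT26 (log2 fold change 1.101 ± 0.43, adjusted p = 0.0487 by edgeR, p = 0.190 by exact permutation test). That call was lost when any of 8 of the 10 tumors was left out and kept without CT26 alum replicate 5 or 4T1 alum replicate 4, with log2 fold changes of 0.74 to 1.36 and adjusted p of 0.00151 to 0.131 (edgeR). It was also lost in each technical replicate alone and without libraries of low depth (adjusted p = 0.0536, edgeR). H2-DMa (0.47 ± 0.19, adjusted p = 0.0558) and Cd74 (0.62 ± 0.31, adjusted p = 0.126) did not pass by edgeR. H2-DMa passed by DESeq2 and without CT26 alum replicate 5, 4T1 alum replicate 3 or 4T1 alum replicate 5, and Cd74 passed without 4T1 alum replicate 3 (0.97, adjusted p = 0.0152, edgeR).

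All CT26 tumors shared a pool with only 2 of the 5 4T1 alum tumors. With the pool as a block, 4 members were called, namely H2-Aa, H2-DMb1, H2-DMa (0.83, adjusted p = 0.0138) and Cd74 (1.28, adjusted p = 0.0366). H2-Ab1 kept its size (1.49, adjusted p = 0.0800) but, like H2-Eb1 (1.25, adjusted p = 0.0993) and Ciita (1.096, adjusted p = 0.211), did not pass in that fit by edgeR.

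With CAT-ABP + alum the gap between the lines was smaller, 0.56 in the median against 1.101 with alum (all genes -0.019 and 0.020), and 2 members passed, beside 45.5% of 13016 genes called and 21.8% called higher. They were H2-Eb1 (202 ± 102.5 against 116 ± 19.0 CPM, SD, n = 6 and 6, log2 fold change 0.76 ± 0.28, adjusted p = 0.0348 by edgeR) and H2-DMa (211 ± 58.2 against 134 ± 40.4 CPM, 0.61 ± 0.22, adjusted p = 0.0289). Exact permutation tests gave p = 0.119 for H2-Eb1 and p = 0.0325 for H2-DMa. For H2-DMa, 5 of 6 CT26 tumors stood above all 4T1 tumors. H2-Aa was next (0.63 ± 0.25, adjusted p = 0.0505 by edgeR), and Ciita had 0.13 ± 0.39.

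These calls changed with single tumors. Members called numbered 0 without CT26 CAT-ABP + alum replicate 4 or 6, 4 without replicate 3, 5 without replicate 5 and 1 without 4T1 CAT-ABP + alum replicate 4. CT26 replicate 5 had the lowest level of all 7 members in its group. In the second technical replicate alone 1 member was called. That the gap was smaller with CAT-ABP is the same contrast as the interaction above, in which no member passed.

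**Figure D2:**
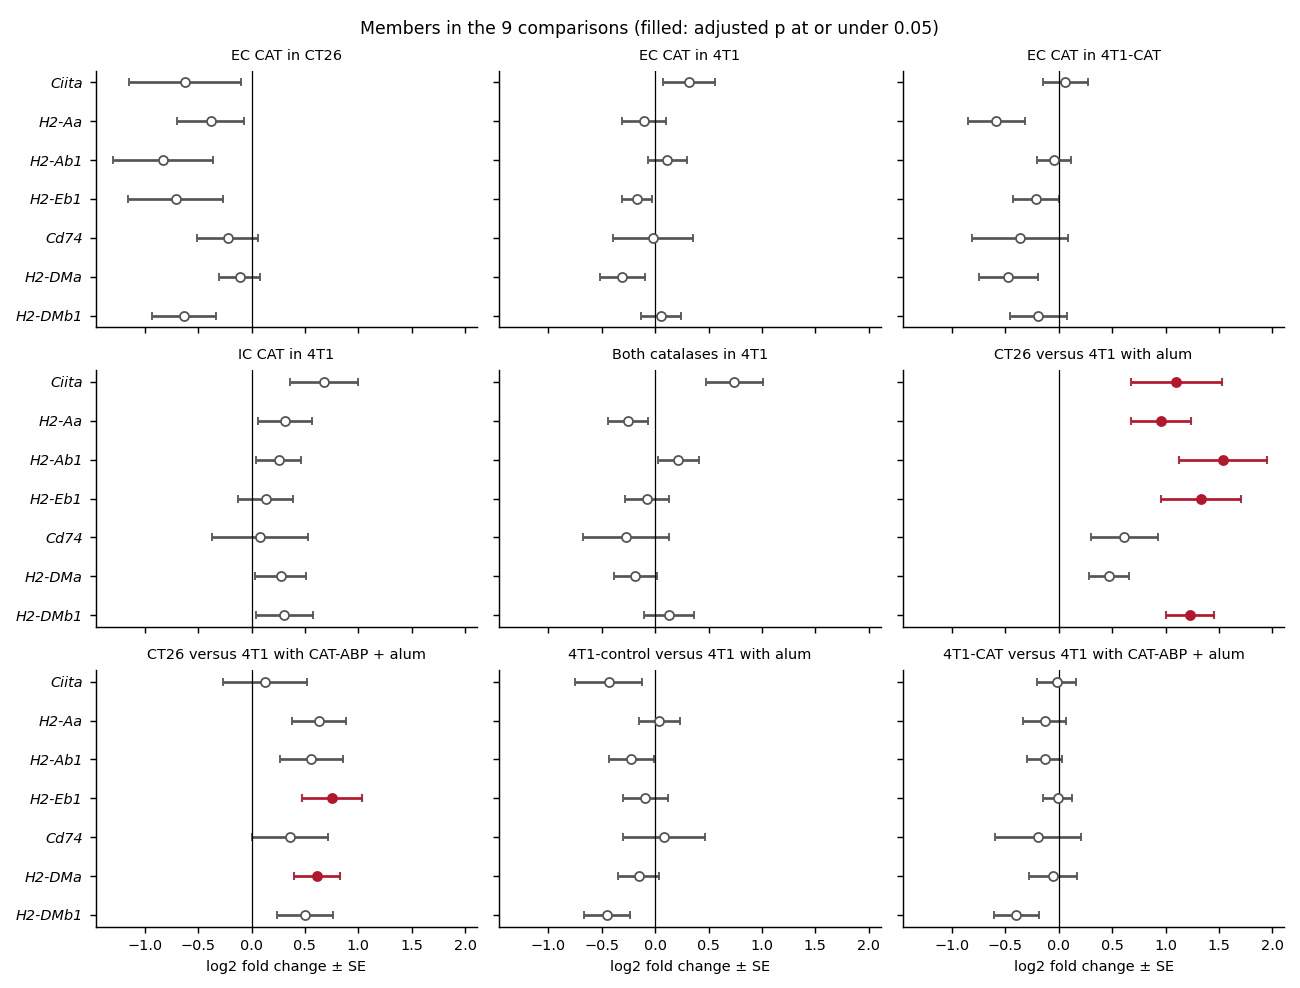
Log2 fold change (± SE) of each member in the 9 comparisons, the first-named group over the second or CAT over its control. Filled red points have an adjusted p at or under 0.05 by edgeR; they are 5 members in CT26 versus 4T1 with alum, 2 with CAT-ABP + alum, and 0 elsewhere.

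The rest of the pathway was read from fixed lists, also drawn up with earlier results of these data known. Their genes were called in any direction only between CT26 and 4T1. With alum, H2-Ea, the I-E alpha chain, was 1.15 ± 0.28 higher on the log2 scale (350.0 ± 173 against 158 ± 25.9 CPM, adjusted p = 0.00410 by edgeR). It was 1 of 2 other class II chains tested. These and the following counts stand beside the 21.3% of all genes called higher. Of 6 antigen-processing genes 2 rose, near that share, the cathepsins Ctss (1.02 ± 0.19), which trims the invariant chain, and Ctsb (0.90 ± 0.15). Of 7 factors of class II promoters (RFX, NF-Y and CREB genes) none rose and 1 fell, Creb1 by 0.35 on the log2 scale (SE 0.13, adjusted p = 0.0366 by edgeR), and their median was 0.091. Marchf1, a ubiquitin ligase that removes class II from the surface, rose by 1.16 ± 0.35. Of 2 tested costimulation genes, Cd40 rose.

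Among genes of the interferon-γ input, the transcription factor Irf1 was at 270 ± 80.3 against 125 ± 22.9 CPM (1.104 ± 0.21, adjusted p = 0.000705 by edgeR). The feedback inhibitor Socs1 rose by 1.93 ± 0.58, and the kinase Jak2 fell by 1.26. Ifng itself was at 14.1 ± 11.9 CPM in CT26 and 0.404 ± 0.224 in 4T1, on 1 to 5 counts per 4T1 tumor, and did not enter the test.

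Markers of other cells were read in the same way. Of T cell markers, 4 of 4 tested rose (median 2.49), with summed levels of 46.4 to 100 CPM in CT26 against 9.60 to 16.1 in 4T1 for the whole list of 5. The leukocyte marker Ptprc rose by 1.55 ± 0.25, and 3 of 9 macrophage markers rose, not far from the share over all genes (Fcgr1 by 1.45 ± 0.19), with sums of 861 to 1389 against 717 to 836 CPM. Of 8 tested dendritic cell markers, Xcr1 rose and Itgax and Ccl22 fell, and the sums overlapped, at 25.9 to 55.7 against 44.1 to 52.7 CPM. Of 5 B cell markers only Cd79b was tested, and it rose by 1.90 on the log2 scale. The 5 summed to 3.82 to 7.01 against 1.44 to 2.74 CPM, and Cd79a was at 0 in all tumors of all 7 groups. Epithelial markers fell in 5 of 5. Of 5 fibroblast markers Dcn rose and Lum, Col1a1 and Col3a1 fell, and of 4 tested neutrophil markers Csf3r rose. The part of these cell types in the class II difference was not tested.

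With CAT-ABP + alum, where 21.8% of all genes were called higher, the lists gave 1 of 2 other chains (H2-Ea, 0.83 ± 0.25), 3 of 6 processing genes (Ctsb, Ctss and Ctsl) and 4 of 4 T cell markers higher in CT26. Socs1 (1.40 ± 0.38) and Irf1 (0.78 ± 0.26) were also higher and Jak2 again lower (-1.29 ± 0.16). Costimulation genes rose in 2 of 3 (Cd80 by 2.27 ± 0.44 and Cd86 by 0.75 ± 0.26). Macrophage markers rose in 5 of 9. Of 8 dendritic cell markers tested Ccr7 and Xcr1 rose and Itgax fell, and of 5 fibroblast markers Dcn rose and Col1a1, Col3a1 and Lum fell. In the comparisons of catalase no gene of these lists passed. In CT26, CAT-ABP + alum gave Ptprc, named here after its value was seen, a log2 fold change of -0.41 ± 0.29 (adjusted p = 0.9997 by edgeR). The lists had medians of 0.32 for dendritic cell, 0.46 for neutrophil, -0.057 for macrophage and -0.23 for T cell markers.

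Within the CT26 groups the members moved together from tumor to tumor. Deviations from the group mean correlated between all 21 pairs of members in CT26 (11 tumors, median r = 0.895). They ran from 0.665 for H2-Ab1 with H2-DMa to 0.997 for H2-Ab1 with H2-Eb1 (Spearman rho = 0.991, permutation p = 2e-05, r = 0.997 without the 2 tumors farthest out). All 21 had an adjusted p at or under 0.05 over the 84 correlations tested by 100000 permutations within groups. The share of all gene pairs that would pass was not computed. Depth is shared by all genes of a tumor, so this count alone does not set the members apart from other genes. The lowest pair fell to r = 0.636 without the 2 farthest tumors (rho = 0.582, permutation p = 0.0112), and the median to 0.837. CT26 alum replicates 2 and 5 were the highest and the lowest of their group for every member, as CAT-ABP + alum replicate 5 was the lowest of its own.

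In the 27 tumors of the 4T1 lines 11 of 21 pairs passed. The share of all gene pairs that would pass was not computed for these tumors either. The median r over the 21 pairs was 0.483, and 0.302 without the 2 farthest tumors. All 6 pairs among H2-Aa, H2-DMa, Cd74 and H2-DMb1 passed, with r = 0.912 for H2-Aa with H2-DMa (rho = 0.883, permutation p = 1e-05, the smallest possible, 0.887 without the 2 farthest). The 3 pairs among H2-Ab1, H2-Eb1 and Ciita also passed, with r = 0.878 for H2-Ab1 with H2-Eb1 (rho = 0.917, p = 1e-05, 0.898 without the 2 farthest). Of the 12 pairs between these sets 2 passed, H2-Eb1 with H2-DMb1 (r = 0.507, adjusted p = 0.0405 by the permutation test) and with H2-Aa (0.483, adjusted p = 0.0470). Without the 2 farthest tumors these 2 pairs had r = 0.329 and 0.266. Both sets were drawn from these same correlations, so the split between them is a description and not a test. The others were lower, with r = 0.343 for H2-Aa with H2-Ab1 (rho = 0.310, permutation p = 0.103), whose products pair with each other, and 0.00509 for H2-Ab1 with H2-DMa. The 2 pools gave r = 0.957 and 0.889 for H2-Aa with H2-DMa and 0.863 and 0.919 for H2-Ab1 with H2-Eb1 (8 and 19 tumors). For H2-Ab1 with Ciita they gave -0.457 and 0.810 beside 0.532 pooled, and for H2-Eb1 with Ciita -0.151 and 0.679 beside 0.578, so neither pair with Ciita held within both.

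**Figure D3:**
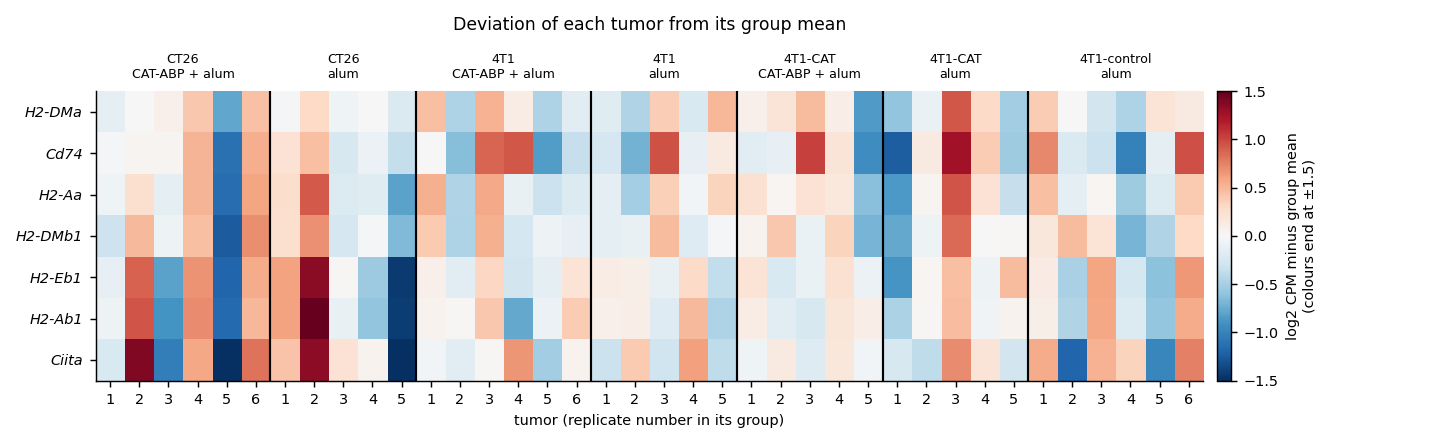
Log2 CPM of each member minus its group mean, 1 column per tumor in the 7 groups (red above, blue below, colors end at ±1.5). In CT26 alum replicate 2 is above its group mean and replicate 5 below it in all 7 rows, whereas in several 4T1 tumors the upper 4 rows differ from the lower 3, as in 4T1 alum replicate 4.

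The balance between short and long transcripts in a tumor was compared with these deviations. The transcript-length balance of a tumor was taken as the mean log2 CPM of 2400 genes with short transcripts (at most 1191.75 bases) minus that of 2401 genes with long ones (at least 3417.125 bases), among 9608 genes with 1000 or more counts. It was higher in CT26 (group means 1.24 and 1.18) than in the 4T1 lines (0.791 to 0.970). In the 4T1 lines it correlated with H2-DMa at r = 0.861 (rho = 0.849, permutation p = 1e-05, the smallest possible, adjusted p = 7e-05, r = 0.829 without the 2 farthest, n = 27), a larger size than 94.65% of genes had. For H2-Aa r was 0.706 (rho = 0.672, permutation p = 0.00025, 0.643 without the 2 farthest). For Cd74 it was 0.632 and for H2-DMb1 0.574, with adjusted p of 0.00323 and 0.00677 by the same permutation test. The values of H2-Aa, Cd74 and H2-DMb1 were larger in size than those of 86.05%, 79.26% and 72.28% of genes. How many of all genes would pass was not computed. H2-Eb1 (-0.166), H2-Ab1 (-0.299) and Ciita (-0.134) did not pass. Within the pools H2-DMa had 0.962 and 0.823 and H2-Aa 0.948 and 0.607.

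In CT26 other members correlated with it, with a negative sign. H2-Ab1 (r = -0.806, rho = -0.782, permutation p = 0.00476, -0.722 without the 2 farthest, n = 11), H2-Eb1 (-0.802) and Ciita (-0.790) had adjusted p of 0.00440 to 0.00855 by the permutation test, and the other 4, H2-DMa among them (-0.170), did not pass. These 3 values were larger in size than those of 76.8%, 76.1% and 74.6% of genes in CT26. With the trend on the balance taken out, an alternative chosen after the data had been seen, H2-Aa with H2-Ab1 in the 4T1 lines went from r = 0.343 to 0.820 and H2-Ab1 with H2-DMa from 0.00507 to 0.541. Every pair among H2-Aa, H2-DMa, Cd74 and H2-DMb1 fell there. H2-Aa with H2-DMa went from 0.912 to 0.844, and Cd74 with H2-DMb1 from 0.656 to 0.462. The median over pairs went from 0.483 to 0.576 in the 4T1 lines and from 0.895 to 0.937 in CT26.

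As a covariate in the fit, the balance changed the sign or size of members in most comparisons. In CT26 H2-Ab1 went from -0.83 to -0.35 with CAT-ABP. H2-Aa in 4T1-CAT with and without CAT-ABP went from -0.58 to 0.030. Between CT26 and 4T1 with alum the same 5 members were called, with larger log2 fold changes for H2-Ab1 (2.40), Ciita (2.13) and H2-Eb1 (2.09). With CAT-ABP + alum the called members were H2-Eb1 (1.16) and H2-Ab1 (1.07, adjusted p = 0.0450 by edgeR), and H2-DMa fell from 0.61 to 0.19 (adjusted p = 0.626). The fit used 1 slope for both lines, although the correlations differed by line, as for H2-DMa (0.861 in the 4T1 lines and -0.170 in CT26). The balance also differed between CT26 and 4T1, with means of 1.18 against 0.875 with alum. With CAT-ABP + alum they were 1.24 against 0.858. Line and balance are thus partly confounded in the fits that compare the lines. What set the balance in a tumor was not tested.

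**Figure D4:**
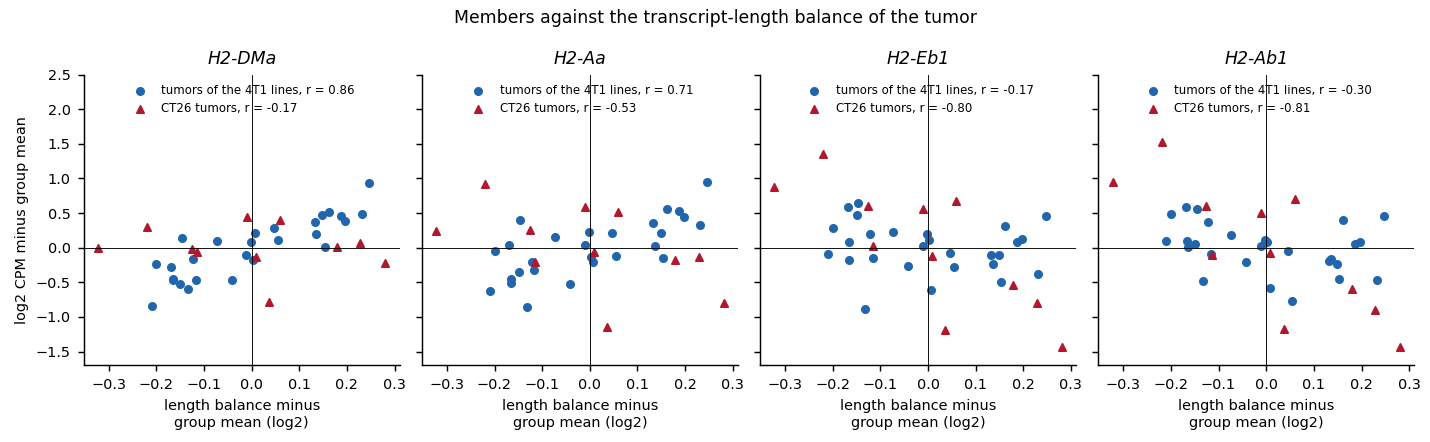
Log2 CPM of 4 members minus the group mean against the transcript-length balance minus its group mean (log2), 1 point per tumor (circles, 27 tumors of the 4T1 lines; triangles, 11 CT26 tumors). H2-DMa and H2-Aa rise with the balance in the 4T1 lines (r = 0.86 and 0.71), and H2-Eb1 and H2-Ab1 fall with it in CT26 (r = -0.80 and -0.81).

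The genes most like the members were ranked by the correlation of their deviations with the members' mean over 38 tumors, among 14646 genes (median r = -0.0012, 99th percentile 0.604). H2-Ea led with r = 0.924, then the immunoproteasome subunit Psmb8 (0.859), the guanylate-binding protein Gbp8 (0.835), the T cell chemokine Cxcl9 (0.834), the interleukin-18 antagonist Il18bp (0.829), AW112010 (0.828), the Fc receptor Fcgr4 (0.828), Gbp4 (0.813), Psmb9 (0.809) and Serpina3g (0.808). All 10 kept r of 0.827 to 0.996 within CT26 and 0.650 to 0.829 within the 4T1 lines. From the fixed lists, Fcgr1 (0.790), Irf1 (0.785), Ifi30 (0.752), Ctss (0.746), C1qb (0.735), Ptprc (0.730) and Ifng (0.722) were also high. The other 7 macrophage markers ran from 0.0651 (Mrc1) to 0.558 (C1qc), and the other antigen-processing genes from -0.257 (Ctsl) to 0.381 (Ctsb). Promoter factors (Rfx5 0.293, Rfxap -0.0953), T cell markers (Cd3g 0.466, Cd8a 0.290) and dendritic cell markers (Itgax 0.415, Flt3 0.290, Xcr1 0.0327) were lower. Epithelial markers lay on both sides of 0, with Krt18 at -0.383, Krt19 at -0.145, Krt8 at -0.0763, Epcam at 0.226 and Cdh1 at 0.283. The genes of the fixed lists were named after their values were seen. All these values are a description with no test, since depth and the length balance are shared by all genes of a tumor.

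The 2 libraries of a tumor show how well each member was measured. Their log2 CPM differed by a median of 0.175 for H2-DMa, 0.185 for H2-Eb1, 0.194 for H2-Aa and 0.217 for H2-Ab1. The median difference was 0.394 for Cd74, 0.452 for H2-DMb1 and 0.689 for Ciita. Over 38 tumors the libraries correlated at r = 0.898 for H2-Ab1 (rho = 0.815), 0.381 for Cd74 (rho = 0.588) and 0.231 for Ciita (rho = 0.376). The largest gap, 5.195 for H2-DMb1, was in 4T1-control replicate 6, which had a library of low depth.

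**Figure D5:**
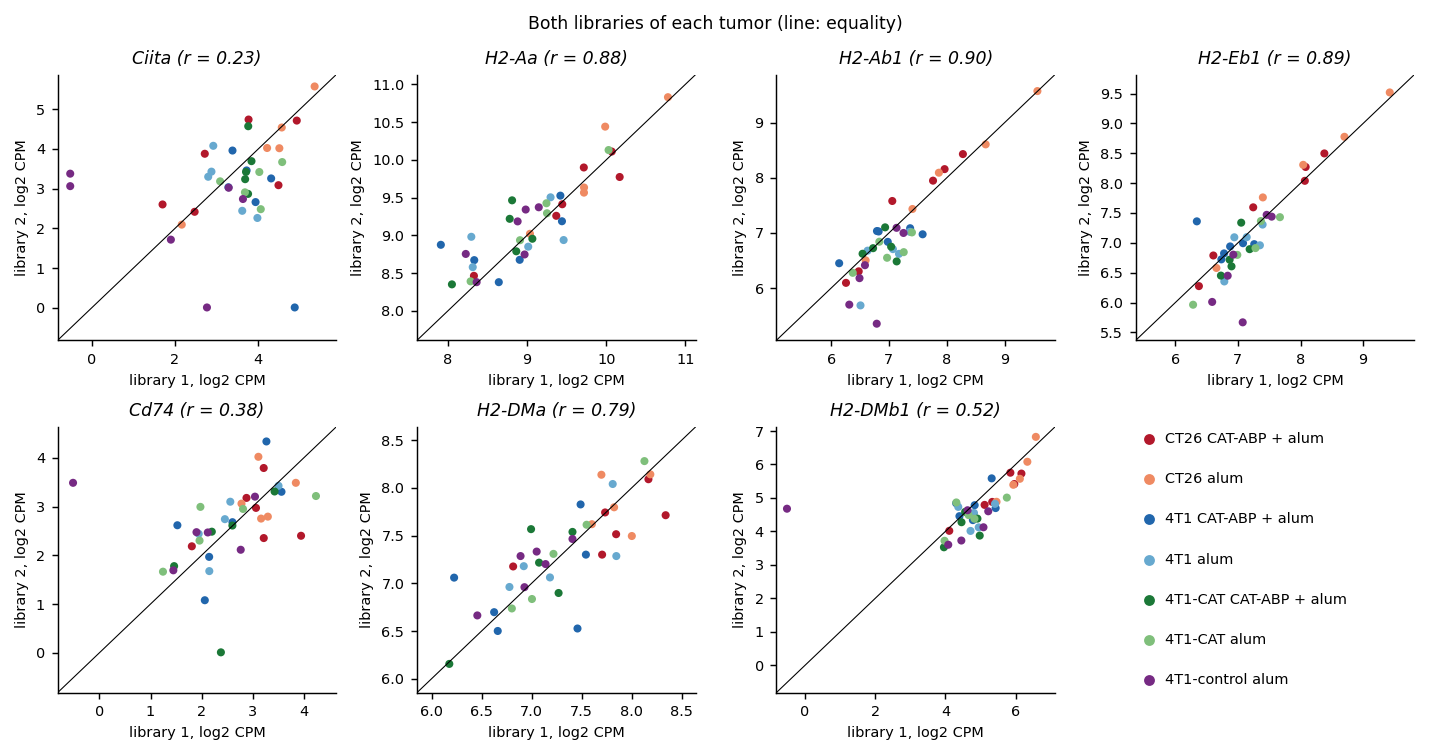
Log2 CPM of each member in library 1 (x axis) and library 2 (y axis), 1 point per tumor, with the line of equality. Points for H2-Aa, H2-Ab1, H2-Eb1 and H2-DMa lie close to the line (median differences 0.175 to 0.217), and those for Cd74, H2-DMb1 and Ciita scatter more widely (0.394 to 0.689).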

How the data were processed

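The deposited table held estimated counts per gene for 76 libraries of 38 tumors. Per the labels and the study's methods, the authors made 3′-end libraries by a modified SCRB-seq protocol (HT3DGE) and counted them with a Smart-seq2 pipeline on Terra. Of the values above 0, 39.7% were not whole, and whether molecular identifiers were collapsed is not given in the sources used here. Libraries held 46233 to 6958626 counts (median 2075009).

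The 2 libraries of each tumor were summed and rounded. Genes were filtered with filterByExpr, scaled by TMM and tested with edgeR 4.0.16 (quasi-likelihood, Benjamini-Hochberg adjusted p at or under 0.05 over all genes tested, only the groups compared in the model) in R 4.3.3 with limma 3.58.1, and with DESeq2 1.42.0 as an alternative. There were 9 comparisons and 2 interactions. Single members were also compared on log2 CPM (prior count 2) by exact permutation tests in SciPy 1.17.1, two-sided, 63 in all, of which 4 had p under 0.05 and which were not adjusted. Correlations used deviations from group means and 100000 permutations within groups, with p adjusted over 84 tests. The fits were tested on simulated data.

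Libraries under 0.25 of the median depth (518752 counts, 7 libraries) were left out in an alternative. Other alternatives were DESeq2, RLE scaling, no low-count filter, 1 model over all groups, the replicate number or the sequencing pool as a block, each technical replicate alone and each tumor left out. The covariate for transcript-length balance was added after the data had been seen. The members and lists were chosen with earlier results of these data known. Members were named in every comparison. Of the other lists, up to 3 genes per direction, list and comparison past the threshold were named by smallest p, and the 10 genes most like the members. The labels name no mouse for a tumor, so p-values measure only the spread between these tumors. Results on 1 gene of the interferon-γ list, and that list's counts, are not reported here.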

Additional observations from a re-analysis of the deposited data

Results flagged for a closer look

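In 3 of 49 sets of tumors tested (7 members in 7 groups), 1 tumor stood apart from the rest of its group by Dixon's ratio on log2 CPM, and chance gives about 1 in 20. H2-Aa was low in 4T1-CAT CAT-ABP + alum replicate 5, at 277.6 CPM where the other 4 had 436 to 504 CPM. Cd74 was low in CT26 CAT-ABP + alum replicate 5, at 2.946 CPM against 6.82 to 10.2 CPM in the other 5. H2-DMb1 was high in 4T1 alum replicate 3, at 37.41 CPM against 23.4 to 26.5 CPM in the other 4.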

How the results depend on the processing

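With the sequencing pool as a block, H2-Aa, Cd74 and H2-DMa in the 4T1 comparison of CAT-ABP went to 0.25, 0.66 and 0.065, H2-Aa and Cd74 in 4T1-control versus 4T1 to -0.15 and -0.19, H2-DMa in the CT26 minus 4T1 interaction to -0.19, and H2-Eb1 in the 4T1-CAT minus 4T1 interaction to 0.029. All values here are log2 fold changes of the opposite sign to the reported ones, and the cause was not tested. Cd74 in the 4T1 comparison of CAT-ABP also turned by DESeq2 (0.059) and in 1 model over all groups (0.0050), and H2-Eb1 in 4T1-CAT versus 4T1 with CAT-ABP + alum without libraries of low depth (0.033).

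Replicate numbers did not pair the tumors. Same-numbered tumors correlated at -0.288 to 0.334, and 0 comparisons had every pair over 0.1. With the replicate number as a block, the pairing left 5 members called in CT26 versus 4T1 with alum and 2 with CAT-ABP + alum, where H2-Aa passed (adjusted p = 0.0434 by edgeR) and H2-Eb1 did not (0.0842), and 0 elsewhere. The block turned Cd74 in 4T1 with CAT-ABP (0.13), H2-Eb1 (0.15) and Cd74 (0.022) with both catalases, Ciita in CT26 versus 4T1 with CAT-ABP + alum (-0.21), H2-Aa (-0.051) and Cd74 (-0.33) in 4T1-control versus 4T1, H2-Eb1 in 4T1-CAT versus 4T1 (0.023) and H2-Eb1 in the 4T1-CAT minus 4T1 interaction (0.012).

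In technical replicate 1 alone, Ciita turned in 4T1-CAT (-0.21) and in CT26 versus 4T1 with CAT-ABP + alum (-0.085), H2-DMb1 with both catalases (-0.036), H2-Aa in 4T1-control versus 4T1 (-0.12), H2-Eb1 in 4T1-CAT versus 4T1 (0.060) and H2-Eb1 in the 4T1-CAT interaction (0.040). In technical replicate 2 alone, 1 member was called in CT26 versus 4T1 with CAT-ABP + alum in place of 2. There Ciita turned in 4T1 (-0.042), H2-Ab1 in 4T1-CAT (0.045) and Cd74 for IC CAT (-0.021). With both catalases, H2-Aa (0.0078), H2-Eb1 (0.036), H2-DMa (0.0075) and H2-DMb1 (-0.036) turned. H2-Aa (0.074), Ciita (0.19) and H2-DMa (0.091) turned in 4T1-CAT versus 4T1, and Ciita in the 4T1-CAT interaction (0.29).

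With the transcript-length balance as a covariate, Cd74 turned in 4T1 (0.0097) and, in 4T1-CAT, H2-Aa (0.030), H2-Ab1 (0.041), Cd74 (0.67), H2-DMa (0.21) and H2-DMb1 (0.32). Cd74 turned for IC CAT (-0.21), H2-DMa with both catalases (0.079), Cd74 in CT26 versus 4T1 with CAT-ABP + alum (-0.13), and H2-Aa (-0.0091) and H2-Eb1 (0.010) in 4T1-control versus 4T1. In 4T1-CAT versus 4T1 it turned H2-Aa (0.058), H2-Eb1 (0.0013), Cd74 (0.095), Ciita (0.022) and H2-DMa (0.14), and in the 4T1-CAT interaction H2-Aa (0.023), Cd74 (0.42), H2-DMa (0.35) and H2-DMb1 (0.13).

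Leaving out each tumor in turn gave ranges that crossed 0. In CT26 this was H2-DMa (-0.20 to 0.013). In 4T1 it was H2-DMb1 (-0.065 to 0.20) and Cd74 (-0.32 to 0.35). In 4T1-CAT it was H2-Ab1 (-0.15 to 0.079), Ciita (-0.035 to 0.26), Cd74 (-0.70 to 0.041) and H2-DMb1 (-0.36 to 0.066). For IC CAT it was Cd74 (-0.33 to 0.40) and H2-DMa (-0.025 to 0.41), and with both catalases H2-Eb1 (-0.20 to 0.078), H2-DMb1 (-0.018 to 0.28) and Cd74 (-0.62 to 0.061). Between CT26 and 4T1 with CAT-ABP + alum it was Ciita (-0.26 to 0.34), and members called ran from 0 to 5. In 4T1-control versus 4T1 it was H2-Aa (-0.046 to 0.17), Cd74 (-0.25 to 0.44) and H2-Eb1 (-0.24 to 0.028). In 4T1-CAT versus 4T1 it was H2-DMa (-0.18 to 0.12), H2-Eb1 (-0.068 to 0.054), Cd74 (-0.54 to 0.11), Ciita (-0.13 to 0.067) and H2-Aa (-0.21 to 0.0064). In the CT26 interaction it was Cd74 (-0.58 to 0.083), and in the 4T1-CAT interaction H2-Eb1 (-0.23 to 0.080), Cd74 (-0.71 to 0.067), H2-DMa (-0.31 to 0.14) and H2-DMb1 (-0.42 to 0.022). In the comparisons of catalase the members called stayed at 0 under every alternative. Low counts of Ciita and Cd74 limit both.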
